A study of Homo sapiens with 6 samples.

Results

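The BCL2 family genes BCL2, BCL2L1, MCL1, BAX, BAK1, BBC3, PMAIP1, BCL2L11, BID and BMF were examined in Ewing sarcoma cells with high and low levels of EWSR1::FLI1. These 10 genes were taken by symbol from the RNAseq table, which holds 26364 gene symbols, and all 10 were found in it. A673 is an Ewing sarcoma cell line, and its A673/TR/shEF derivative carries a tetracycline repressor and an shRNA against the EWSR1::FLI1 fusion mRNA that is expressed when doxycycline is added. The 3 EWSR1::FLI1 high samples were left untreated, and the 3 EWSR1::FLI1 low samples received 1 µg/mL doxycycline for 72 h. Both groups carry the shRNA construct and differ in doxycycline, so effects of the drug and of the knockdown cannot be told apart. The series text speaks of independent clones, whereas the titles number experiments, so p-values measure the spread between these samples, which may be technical.

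The proteins of this family decide at the outer membrane of the mitochondrion whether a cell enters apoptosis. Pro-survival members (BCL2, BCL-XL from BCL2L1, MCL1) hold the effectors BAX and BAK in check. When activated, the effectors form pores that release cytochrome c. BH3-only members (PUMA from BBC3, NOXA from PMAIP1, BIM from BCL2L11, BID and BMF) bind the pro-survival proteins, and some also activate the effectors directly. Much of their control takes place on the protein, by degradation, cleavage or localisation, which RNA levels do not show.

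The libraries were examined first and held between 6980361 and 16658933 reads on genes. FLI1, which forms the 3′ part of the fusion, was at 11.3, 12.7 and 14.2 FPKM (fragments scaled to gene length and library size) in EWSR1::FLI1 high replicates 1, 2 and 3. It was at 2.91, 4.29 and 3.68 FPKM in the treated libraries, replicates 1, 2 and 3 (log2 fold change -1.57, standard error 0.18, adjusted p = 0.000676, limma). All 5 Ewing sarcoma markers looked up (CD99, NKX2-2, NR0B1, STEAP1 and LIPI) were above 1 FPKM in each EWSR1::FLI1 high library. EWSR1::FLI1 low replicate 1 stood apart from the others of its group. Over the genes tested, its FPKM was at a median of 0.809 of the mean of EWSR1::FLI1 low replicates 2 and 3, and at 0.721 over the 8603 genes with a mean of at least 5 FPKM. Of the 10 BCL2 family genes, 7 were below that mean in replicate 1, as were 67.4% of all genes tested. Among the 8603 genes with a mean of at least 5 FPKM, 87.0% were below it in replicate 1. Results that rest on this library are therefore given with and without it. EWSR1::FLI1 low replicates 2 and 3 also differed from each other. On recovered reads, their chi-square per degree of freedom was 20.2. It was 31.5 and 29.0 for replicate 1 against replicates 2 and 3, and 4.25 to 6.27 between EWSR1::FLI1 high libraries.

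Genes with a mean of at least 0.5 FPKM were compared with limma on log2(FPKM + 1), which left 15504 genes and all 10 BCL2 family genes. A gene is said to have risen or fallen when its adjusted p was under 0.01. Of the 10 genes, 1 rose (BCL2) and none fell, where 7.88% of all genes tested passed this limit, 4.51% of all genes upward and 3.37% downward. The share of 1 in 10 lies near this background. BCL2, BCL2L11 and BMF were higher in each EWSR1::FLI1 low library than in each EWSR1::FLI1 high library, and the groups overlapped for the other 7 genes. Among all genes tested, 41.1% had groups that did not overlap, and 17.5% did so with the higher values in EWSR1::FLI1 low cells and 23.6% with the lower values there. The 10 genes had a median log2 fold change of 0.36 beside -0.048 over all genes tested, with 7 estimates above 0 and 3 below. Of all genes tested, 45.2% had an estimate above 0. At an adjusted p under 0.05, 3 of the 10 passed, all higher, where 19.8% of all genes tested passed, 9.87% upward and 9.91% downward. Since FPKM is per length of gene, levels can also be compared between genes. In EWSR1::FLI1 high cells MCL1 had the highest level, followed by PMAIP1 and BID, then BCL2L1 and BAX, then BMF and BAK1, and last BCL2, BBC3 and BCL2L11. Neighbours within each of these sets overlapped in their ranges, and the sets did not overlap with the next. In EWSR1::FLI1 low cells the ranges of MCL1, PMAIP1, BID and BCL2L1 each overlapped with the next, and BCL2, BAX, BAK1, BCL2L11 and BBC3 likewise. BMF, between these sets, did not overlap with BCL2L1 or BCL2, its neighbours in the order of means, but it overlapped with BID, BAX and BAK1. In the order of mean levels, BCL2 held the eighth position in EWSR1::FLI1 high cells and the sixth in EWSR1::FLI1 low cells, where its range overlapped that of BAX.

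**Figure D1:**
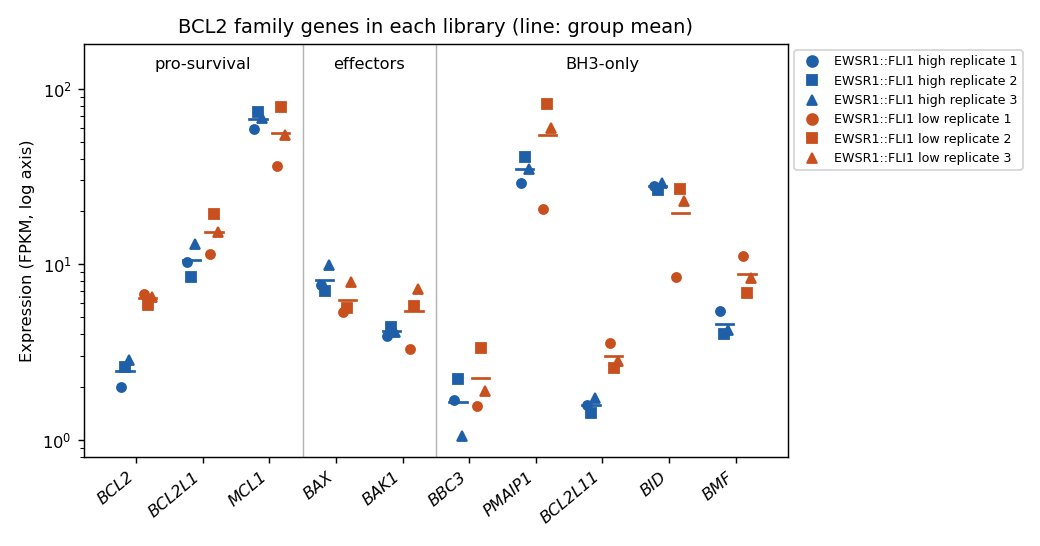
Expression of the 10 BCL2 family genes in FPKM on a log axis, with 1 point for each library (blue for EWSR1::FLI1 high, orange for EWSR1::FLI1 low; the marker shape gives the replicate number) and a line at the mean of each group (n = 3). BCL2, BCL2L11 and BMF show groups that do not overlap, whereas EWSR1::FLI1 low replicate 1 lies well below the other orange points for PMAIP1 and BID.

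Among the pro-survival genes, BCL2 rose in EWSR1::FLI1 low cells. BCL2 (ENSG00000171791, chromosome 18, 60790579 to 60987361, minus strand, GRCh37) encodes the founding member of the family, which binds BH3-only proteins and BAX. Its level was 2.001, 2.58 and 2.85 FPKM in the untreated libraries, replicates 1, 2 and 3, and 6.79, 5.88 and 6.47 FPKM in the treated libraries, replicates 1, 2 and 3. All 3 doxycycline-treated libraries lay close together, and the lowest of them was above the highest untreated one. The means were 2.48 ± 0.432 and 6.38 ± 0.466 FPKM (SD, n = 3 in each group), a ratio of 2.58. On the log2(FPKM + 1) scale the fold change was 1.09 (standard error 0.17, 95% interval 0.72 to 1.47, adjusted p = 0.00265, limma). Between 136 and 667 reads per library lay on BCL2, and 3 reads would correspond to at most 0.0585 FPKM. The call was lost without EWSR1::FLI1 high replicate 1, 2 or 3 (adjusted p = 0.0186, 0.0161 and 0.0107, limma), with log2 fold changes of 0.99, 1.12 and 1.17, and it was kept without EWSR1::FLI1 low replicate 1 (1.05, adjusted p = 0.00319).

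BCL2L1 and MCL1 did not pass the test. BCL2L1 (ENSG00000171552, chromosome 20, 30252255 to 30311792, minus strand), whose main product BCL-XL keeps BAX and BAK inactive, was at 10.3, 8.48 and 13.1 FPKM in the EWSR1::FLI1 high libraries. With doxycycline it was at 11.5, 19.3 and 15.2 FPKM. The groups overlapped through replicate 1 of the treated cells. The log2 fold change was 0.48 (95% interval -0.05 to 1.02, adjusted p = 0.186, limma), and 0.66 without EWSR1::FLI1 low replicate 1 (adjusted p = 0.042, above the limit of 0.01). Values per gene do not separate the long form BCL-XL from the short form BCL-XS, and exons of the gene overlap ABALON on the opposite strand.

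MCL1 (ENSG00000143384, chromosome 1, 150533371 to 150552214, minus strand), a short-lived pro-survival protein that binds NOXA and BIM, was the gene with the highest mean level of the 10 in both groups. It was at 59.3, 74.0 and 68.4 FPKM in the EWSR1::FLI1 high libraries and at 36.1, 78.2 and 54.4 FPKM in the EWSR1::FLI1 low libraries. The treated libraries spread to both sides of the untreated ones. The log2 fold change of -0.32 was not significant (95% interval -0.93 to 0.30, adjusted p = 0.455, limma), and it was -0.038 without EWSR1::FLI1 low replicate 1. Exons of MCL1 overlap ADAMTSL4-AS1 on the same strand and ADAMTSL4 on the opposite strand, so reads may be shared with them.

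Shares within a library do not depend on the scaling between libraries. Of the summed FPKM of the 3 pro-survival genes, BCL2 made up 2.79%, 3.03% and 3.38% in the untreated libraries. In the treated libraries it made up 12.5%, 5.68% and 8.50%. The share of MCL1 was 82.9%, 87.0% and 81.1% without doxycycline and 66.4%, 75.6% and 71.5% with it. BCL2L1 made up 9.97% to 15.5% without doxycycline and 18.7% to 21.1% with it. For none of the 3 shares did the groups overlap, and MCL1 remained the main pro-survival transcript in all 6 libraries. These shares were not tested, and they add up to 100% in each library, so that they do not move independently. The summed level of the 3 genes was 80.3 ± 7.58 FPKM in the EWSR1::FLI1 high libraries and 77.9 ± 24.5 FPKM in the EWSR1::FLI1 low libraries (SD, n = 3 in each group), with groups that overlapped.

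**Figure D2:**
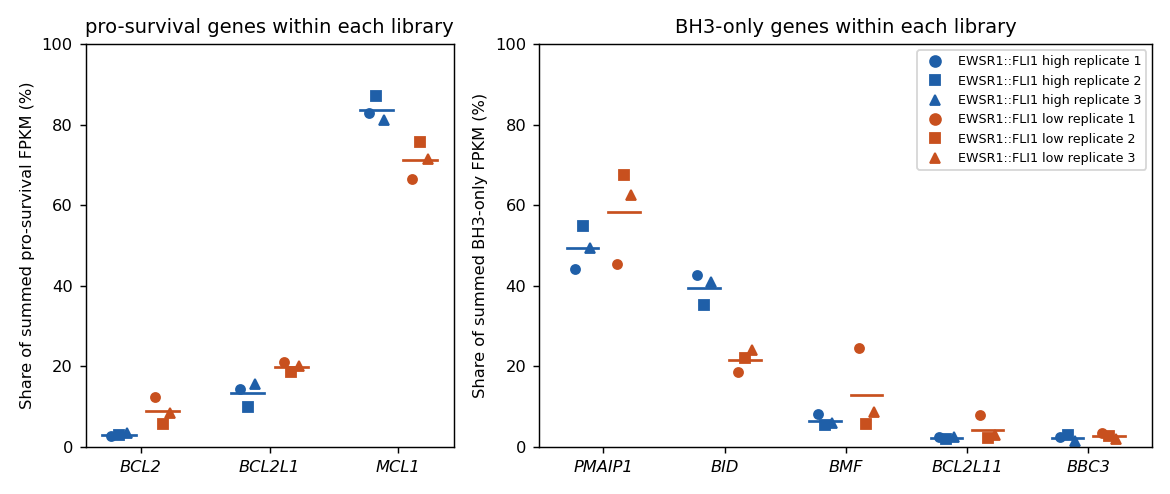
Share in percent of each gene in the summed FPKM of the 3 pro-survival genes (left) and of the 5 BH3-only genes (right), with 1 point for each library and a line at the mean of each group (n = 3). BCL2 and BCL2L1 take larger shares and MCL1 and BID smaller shares in each orange (EWSR1::FLI1 low) library than in each blue (EWSR1::FLI1 high) library.

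The effector genes BAX and BAK1 did not pass the test. BAX (ENSG00000087088, chromosome 19, 49458072 to 49465055, plus strand) encodes an effector that moves from the cytosol to the mitochondrion. It was at 7.59, 7.02 and 9.89 FPKM in the EWSR1::FLI1 high libraries and at 5.34, 5.61 and 7.92 FPKM in the EWSR1::FLI1 low libraries. The groups overlapped through replicate 3 of the treated cells (log2 fold change -0.34, 95% interval -0.80 to 0.13, adjusted p = 0.282, limma). BAK1 (ENSG00000030110, chromosome 6, 33540324 to 33548070, minus strand), whose product resides in the outer membrane of the mitochondrion, was at 3.91, 4.41 and 4.12 FPKM in the EWSR1::FLI1 high libraries. With doxycycline it was at 3.28, 5.78 and 7.20 FPKM, below the untreated libraries in replicate 1 and above them in replicates 2 and 3. Its log2 fold change was 0.27 (95% interval -0.27 to 0.81, adjusted p = 0.468, limma), and 0.54 without EWSR1::FLI1 low replicate 1 (adjusted p = 0.0381). Reads of BAK1 may be shared with its pseudogenes BAK1P1 and BAK1P2. The ratio of BAX to BAK1 was 1.94, 1.59 and 2.40 in the untreated libraries and 1.63, 0.969 and 1.10 in the treated ones, so the groups overlapped through treated replicate 1.

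Among the BH3-only genes, BCL2L11 and BMF were higher in each EWSR1::FLI1 low library than in each EWSR1::FLI1 high library, with an adjusted p between 0.01 and 0.05. BCL2L11 (ENSG00000153094, chromosome 2, 111876955 to 111926021, plus strand) encodes BIM, which binds all pro-survival proteins of the family. It was at 1.58, 1.41 and 1.72 FPKM in the EWSR1::FLI1 high libraries and at 3.57, 2.57 and 2.80 FPKM in the EWSR1::FLI1 low libraries. The mean was 1.89 times as high in the treated libraries (1.57 ± 0.156 and 2.98 ± 0.521 FPKM, SD, n = 3 in each group). The log2 fold change was 0.62 (95% interval 0.25 to 0.99, adjusted p = 0.0295, limma). Omitting any 1 library gave values between 0.52 and 0.70, with an adjusted p (limma) from 0.0374 to 0.118. Exons of BCL2L11 overlap MIR4435-2HG on the opposite strand, and whether strand was used in counting is not given in the sources used here.

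BMF (ENSG00000104081, chromosome 15, 40380091 to 40401093, minus strand) encodes a BH3-only protein that is held at the cytoskeleton through a dynein light chain. It was at 5.40, 4.02 and 4.21 FPKM in the EWSR1::FLI1 high libraries and at 11.2, 6.89 and 8.35 FPKM in the EWSR1::FLI1 low libraries. The mean was 1.94 times as high in the treated libraries, with the highest value in replicate 1. The log2 fold change was 0.81 (95% interval 0.34 to 1.27, adjusted p = 0.0259, limma), and 0.64 without EWSR1::FLI1 low replicate 1 (adjusted p = 0.029). Across all 6 such fits the adjusted p (limma) of BMF ranged from 0.0203 to 0.11. BCL2, BCL2L11 and BMF were the 3 of the 10 genes whose level in EWSR1::FLI1 low replicate 1 was not below the mean of replicates 2 and 3, at 1.10, 1.33 and 1.47 times that mean.

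The sequences before the starts of BCL2, BCL2L11 and BMF are shown because these 3 genes were the ones with groups that did not overlap. They are the 250 bases before the RefSeq start of each gene in GRCh38.p14 (chr18:63319770-63320019, minus strand; chr2:111120664-111120913, plus strand; chr15:40108880-40109129, minus strand, the upstream one of the starts listed for BMF), written 5′ to 3′. Capitals mark the FOXO word GTAAACA and the GC box GGGCGG on either strand.
BCL2: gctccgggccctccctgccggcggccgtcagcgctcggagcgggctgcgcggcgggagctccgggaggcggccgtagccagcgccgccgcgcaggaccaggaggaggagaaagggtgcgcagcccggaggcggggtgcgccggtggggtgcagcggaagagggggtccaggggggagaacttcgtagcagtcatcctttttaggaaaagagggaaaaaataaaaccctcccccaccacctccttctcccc
BCL2L11: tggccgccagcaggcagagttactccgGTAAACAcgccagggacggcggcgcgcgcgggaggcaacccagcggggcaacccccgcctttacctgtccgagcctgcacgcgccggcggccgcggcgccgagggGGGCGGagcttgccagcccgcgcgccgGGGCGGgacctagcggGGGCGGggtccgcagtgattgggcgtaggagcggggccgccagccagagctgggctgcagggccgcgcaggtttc
BMF: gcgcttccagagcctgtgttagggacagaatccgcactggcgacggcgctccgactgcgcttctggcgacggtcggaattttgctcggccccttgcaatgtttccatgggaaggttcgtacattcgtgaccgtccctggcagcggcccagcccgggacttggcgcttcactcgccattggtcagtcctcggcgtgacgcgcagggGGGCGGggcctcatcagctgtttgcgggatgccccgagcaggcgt

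Of the 10 genes, 9 had an entry in the RefSeq promoter table, and MCL1 had none. The words searched on both strands were GTAAACA (FOXO factors), CCGGAAG (ETS factors, to which FLI1 belongs), GGAAGGAA (a short GGAA repeat), TTTGGCGC, TTTGCCGC, TTTCGCGC and TTTCCCGC (E2F factors) and GGGCGG (GC box); CCGGAAG and GGAAGGAA can overlap. The FOXO word was found before 1 of the 9 genes, BCL2L11, and in 2.98% of all 35116 windows of this length. The ETS word, the GGAA repeat and the E2F words were found before none of the 9, and in 8.52%, 3.06% and 2.79% of all windows. The GC box was found before 6 of the 9 and in 42.6% of all windows, 3 times before BCL2L11, once before BMF and not before BCL2. A gene was counted where any of its listed windows held the word, whereas the shares are per window. Genes with more than 1 listed start, such as BID, thus had more chances to be counted. A word in such a window is not evidence of binding, and binding was not measured here.

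PMAIP1 and BID had the highest levels of the 5 BH3-only genes in EWSR1::FLI1 high cells. Their log2 fold changes depended on single EWSR1::FLI1 low libraries, most on replicate 1. PMAIP1 (ENSG00000141682, chromosome 18, 57567228 to 57571537, plus strand) encodes NOXA, which binds MCL1. It was at 28.8, 41.1 and 34.9 FPKM in the EWSR1::FLI1 high libraries and at 20.6, 82.4 and 59.7 FPKM in the EWSR1::FLI1 low libraries. Replicates 2 and 3 of the treated cells were above all untreated libraries, and replicate 1 was below them, at 0.29 of the mean of the other two. Over the 6 libraries the log2 fold change was 0.43 (95% interval -0.56 to 1.42, adjusted p = 0.536, limma). Omitting EWSR1::FLI1 low replicate 1 gave 1.00 (adjusted p = 0.00754, limma), and omitting EWSR1::FLI1 low replicate 2 gave 0.025 (adjusted p = 0.977, limma).

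BID (ENSG00000015475, chromosome 22, 18216904 to 18257536, minus strand) encodes the protein that caspase 8 cleaves to link death receptors with the mitochondrion. It was at 27.9, 26.4 and 29.0 FPKM in the EWSR1::FLI1 high libraries and at 8.50, 27.0 and 22.9 FPKM in the EWSR1::FLI1 low libraries. In treated replicate 1 it was at 0.341 of the mean of replicates 2 and 3, of which replicate 2 lay within the range of the untreated libraries. The log2 fold change was -0.63 (95% interval -1.46 to 0.19, adjusted p = 0.258, limma), and -0.15 without EWSR1::FLI1 low replicate 1 (adjusted p = 0.449). Its share of the summed FPKM of the 5 BH3-only genes, which was not tested, was 42.7%, 35.1% and 40.9% in the untreated libraries and 18.7%, 22.1% and 23.9% in the treated ones, without overlap. The share of PMAIP1 was 44.1%, 54.7% and 49.3% in the untreated and 45.4%, 67.4% and 62.4% in the treated libraries, with overlap.

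BBC3 (ENSG00000105327, chromosome 19, 47724079 to 47736023, minus strand), which encodes PUMA, had between 17 and 62 reads per library, the fewest of the 10 genes. It was at 1.68, 2.22 and 1.05 FPKM in the EWSR1::FLI1 high libraries and at 1.56, 3.32 and 1.90 FPKM in the EWSR1::FLI1 low libraries. The groups overlapped, and the log2 fold change was 0.29 (95% interval -0.27 to 0.84, adjusted p = 0.454, limma). The summed level of the 5 BH3-only genes, divided by that of the 3 pro-survival genes, was 0.914, 0.883 and 0.841 in the untreated libraries. In the treated libraries it was 0.835, 1.18 and 1.26, so that replicate 1 lay below and replicates 2 and 3 above the untreated range. This ratio was not tested. In bulk RNA, a lower value from fewer expressing cells and one from less RNA per cell cannot be told apart.

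**Figure D3:**
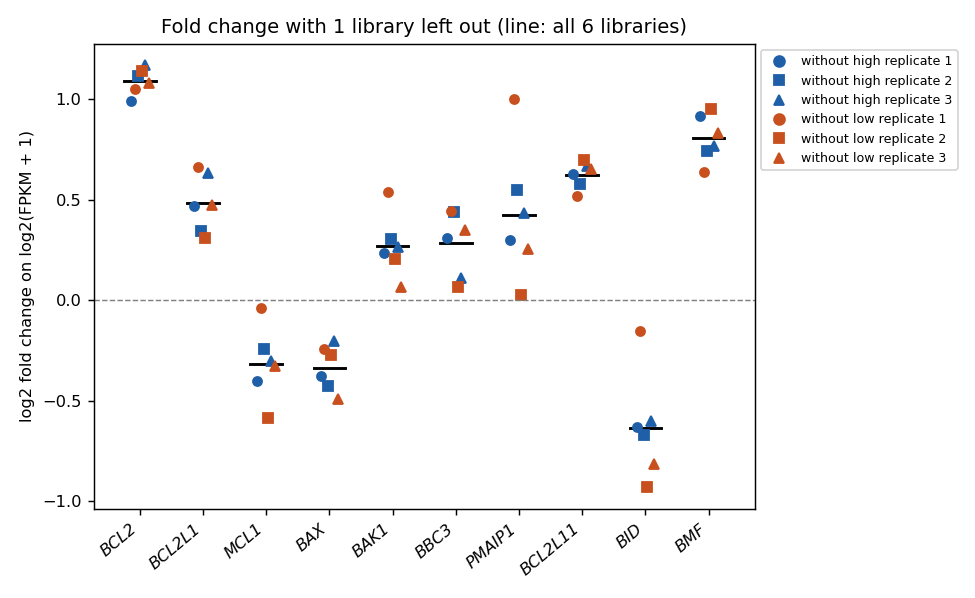
Log2 fold change on the log2(FPKM + 1) scale of the 10 BCL2 family genes, with 1 point for each fit that left out 1 library and a black line for the fit with all 6 libraries. BCL2 stays between 0.99 and 1.17, whereas PMAIP1 moves from 0.43 to 1.00 and BID from -0.63 to -0.15 without EWSR1::FLI1 low replicate 1.

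The family has further members outside these 10 genes. Of 13 such genes, 10 could be tested, 1 rose (BOK) and none fell, beside the 7.88% of all genes tested that were called, and their median log2 fold change was 0.13. BOK (ENSG00000176720, chromosome 2, 242490839 to 242513546, plus strand) encodes an effector related to BAX and BAK. It was at 1.62, 2.28 and 2.29 FPKM in the EWSR1::FLI1 high libraries and at 4.21, 5.53 and 4.95 FPKM in the EWSR1::FLI1 low libraries, without overlap. The log2 fold change was 0.95 (95% interval 0.55 to 1.34, adjusted p = 0.00661, limma). The adjusted p of BOK (limma) stayed under 0.01 without EWSR1::FLI1 low replicate 1 (0.00367) and lay between 0.0195 and 0.0388 when any other library was left out. BOK-AS1 overlaps it on the opposite strand.

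BNIP3L, a receptor for the removal of mitochondria by autophagy, was at 34.5, 31.1 and 29.2 FPKM in the EWSR1::FLI1 high libraries and at 54.4, 75.0 and 55.3 FPKM in the EWSR1::FLI1 low libraries, without overlap (log2 fold change 0.93, adjusted p = 0.0121, limma; 1.01 and 0.00331 without EWSR1::FLI1 low replicate 1). Its relative BNIP3, which has many pseudogenes, was at 52.9 to 57.5 FPKM in the EWSR1::FLI1 high and at 34.7 to 59.6 FPKM in the EWSR1::FLI1 low libraries (log2 fold change -0.19, adjusted p = 0.61, limma). BCL2L12 was lower in each treated library, at 6.51, 8.63 and 9.02 against 3.66, 4.87 and 6.34 FPKM, but did not pass the test (log2 fold change -0.62, adjusted p = 0.0747, limma), and its exons overlap IRF3 on the opposite strand. The groups overlapped for the pro-survival genes BCL2L2 (log2 fold change 0.18) and BCL2A1 (0.58), for the BH3-only genes BAD (0.18) and BIK (0.076), for the mitophagy receptor BCL2L13 (-0.14) and for BCL2L15 (-0.036), with adjusted p (limma) from 0.567 to 0.908. BCL2A1 was at 10.2 FPKM in EWSR1::FLI1 low replicate 2 and between 0.404 and 1.64 FPKM in the 5 other libraries. BCL2L10, HRK and BCL2L14 were below the limit of 0.5 FPKM, with at most 10 reads in any library.

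**Figure D4:**
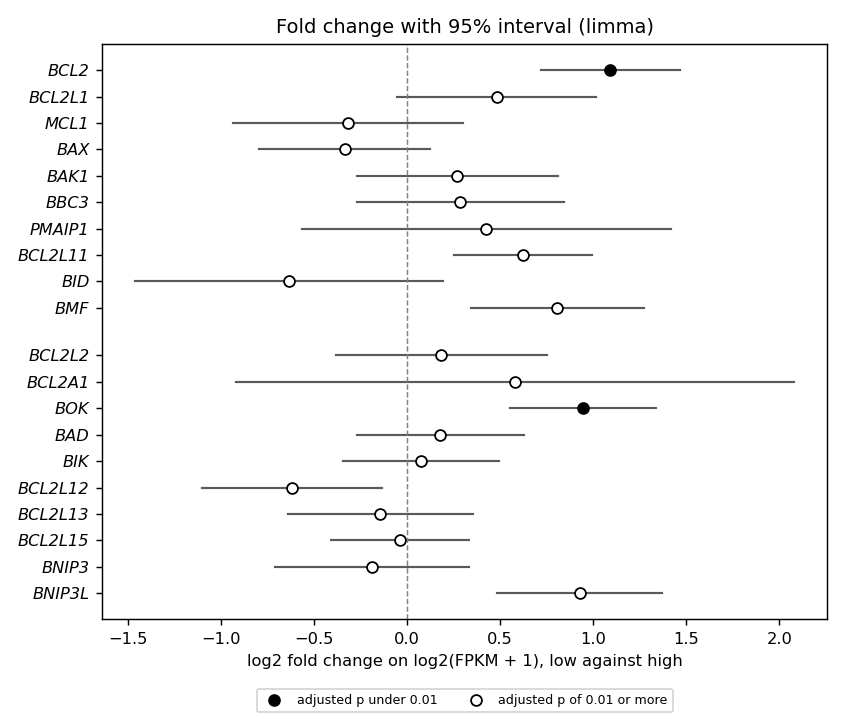
Log2 fold change of EWSR1::FLI1 low against EWSR1::FLI1 high cells on the log2(FPKM + 1) scale (point) with its 95% interval (line, limma), for the 10 BCL2 family genes (above) and the 10 other family genes that could be tested (below). Filled points have an adjusted p under 0.01, which holds for BCL2 and BOK.

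Genes for caspases and other proteins of apoptosis outside the BCL2 family were then examined. Of 16 genes for caspases, the apoptosome and other proteins of the mitochondrion, none was called by limma on log2(FPKM + 1) or by limma-voom on recovered reads. Of all genes tested, 7.88% and 11.2% were called in these fits. An unadjusted p under 0.05 (limma) was found for 3 of the 16, where 34.3% of all genes tested had one. The median log2 fold change of the 16 genes was -0.18. Of their estimates, 11 were below 0 and 5 above it, beside 45.2% of all genes tested above 0. The largest estimate was that of ENDOG, a nuclease of the mitochondrion, at 12.0, 8.77 and 10.3 FPKM in the EWSR1::FLI1 high and 4.42, 3.51 and 9.70 FPKM in the EWSR1::FLI1 low libraries (log2 fold change -0.82, adjusted p = 0.0943, limma; -1.19 and 0.00878 without EWSR1::FLI1 low replicate 3). Of 7 inhibitor of apoptosis genes, 6 could be tested and none was called by limma on log2(FPKM + 1) or by limma-voom on recovered reads. An unadjusted p under 0.05 (limma) was found for 2 of them, which went in opposite directions. Among all genes tested these 3 shares were 7.88%, 11.2% and 34.3%, so the counts for these few genes lie near the background. BIRC2, which encodes cIAP1, was at 28.9, 31.3 and 30.6 FPKM without doxycycline and at 37.8, 108 and 71.4 FPKM with it (log2 fold change 1.11, adjusted p = 0.0469, limma; 1.51 and 0.000801 without EWSR1::FLI1 low replicate 1). BIRC5, named here after its values were seen, encodes survivin and was at 66.7, 65.5 and 77.6 FPKM without doxycycline and at 22.0, 28.4 and 53.4 FPKM with it. Its groups did not overlap either (log2 fold change -1.09, adjusted p = 0.0349, limma; -0.82 and 0.038 without EWSR1::FLI1 low replicate 1, -1.44 and 0.00402 without EWSR1::FLI1 low replicate 3).

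Of 8 genes of the death receptor pathway, which reaches BID through caspase 8, none was called by limma on log2(FPKM + 1). Of all genes tested, 7.88% were called in this fit. Of the 8 genes, 3 had an unadjusted p under 0.05 and 1 was called by limma-voom on recovered reads, beside 34.3% and 11.2% of all genes tested. Of the 8 estimates, 6 were above 0, beside 45.2% of all genes tested. The largest estimate was that of the receptor gene FAS, at 39.8, 41.2 and 49.7 FPKM in the EWSR1::FLI1 high and 15.9, 27.3 and 22.9 FPKM in the EWSR1::FLI1 low libraries, without overlap. Its log2 fold change was -0.98 (adjusted p = 0.019, limma), and omitting EWSR1::FLI1 low replicate 1 gave -0.77 (adjusted p = 0.00844, limma). Exons of FAS overlap ACTA2 on the opposite strand. CFLAR and RIPK1, named here after their values were seen, were higher in each treated library than in each untreated one. CFLAR, which encodes the caspase 8 inhibitor cFLIP, was at 5.95, 5.45 and 6.37 FPKM without doxycycline and at 8.49, 14.9 and 10.1 FPKM with it (log2 fold change 0.78, adjusted p = 0.0347, limma; 0.94 and 0.00826 without EWSR1::FLI1 low replicate 1), and its exons overlap CFLAR-AS1 on the opposite strand. RIPK1, which encodes a kinase of the receptor complex, was at 9.71 to 11.1 FPKM without doxycycline and at 11.4 to 18.7 FPKM with it (log2 fold change 0.53, adjusted p = 0.119, limma; 0.74 and 0.00636 without EWSR1::FLI1 low replicate 1). Of 4 genes for enzymes that add ubiquitin to MCL1 or remove it, none was called by limma on log2(FPKM + 1) or by limma-voom on recovered reads. None had an unadjusted p under 0.05 (limma) either. Among all genes tested these 3 shares were 7.88%, 11.2% and 34.3%. The estimates of the 4 genes lay between -0.029 and 0.054, the largest being that of BTRC.

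Transcription factors known to act on BH3-only genes were examined as well. Of 10 such genes, 1 fell (E2F1) and none rose, beside the 7.88% of all genes tested that were called, and their median log2 fold change was 0.48. E2F1, a factor of the cell cycle that can also activate BH3-only genes, fell from 13.5, 11.5 and 14.9 FPKM to 2.79, 3.34 and 4.82 FPKM (log2 fold change -1.64, 95% interval -2.10 to -1.17, adjusted p = 0.000999, limma). FOXO1 and FOXO3, which are named here after their values were seen, encode factors known to activate BCL2L11. FOXO1 was at 1.89, 1.38 and 1.37 FPKM in the EWSR1::FLI1 high and 10.2, 3.14 and 5.93 FPKM in the EWSR1::FLI1 low libraries (log2 fold change 1.43, adjusted p = 0.0154, limma). FOXO3 was at 4.58, 4.31 and 5.11 FPKM against 9.64, 8.85 and 7.72 FPKM (log2 fold change 0.78, adjusted p = 0.0121, limma). For both genes the groups did not overlap. Omitting EWSR1::FLI1 low replicate 1 gave log2 fold changes of 1.08 for FOXO1 (adjusted p = 0.0124, limma) and 0.71 for FOXO3 (adjusted p = 0.0114, limma). Omitting each library in turn gave 1.08 to 1.80 for FOXO1, with an adjusted p (limma) from 0.0015, without EWSR1::FLI1 low replicate 2, to 0.0643, without EWSR1::FLI1 high replicate 3.

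Of 14 p53 target genes outside the family, 1 rose (TP53I3) and none fell, beside the 7.88% of all genes tested that were called, and their median log2 fold change was 0.18. TP53I3, which encodes a quinone oxidoreductase, rose from 2.11, 1.54 and 2.48 FPKM to 4.59, 6.65 and 8.23 FPKM (log2 fold change 1.28, 95% interval 0.78 to 1.78, adjusted p = 0.0049, limma). Its adjusted p (limma) was 0.00107 without EWSR1::FLI1 low replicate 1 and between 0.0124 and 0.0285 when any other library was left out. Exons of TP53I3 overlap FAM228B on the opposite strand. BAX, BBC3 and PMAIP1, the p53 targets among the 10 BCL2 family genes, did not pass the test, as described.

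**Figure D5:**
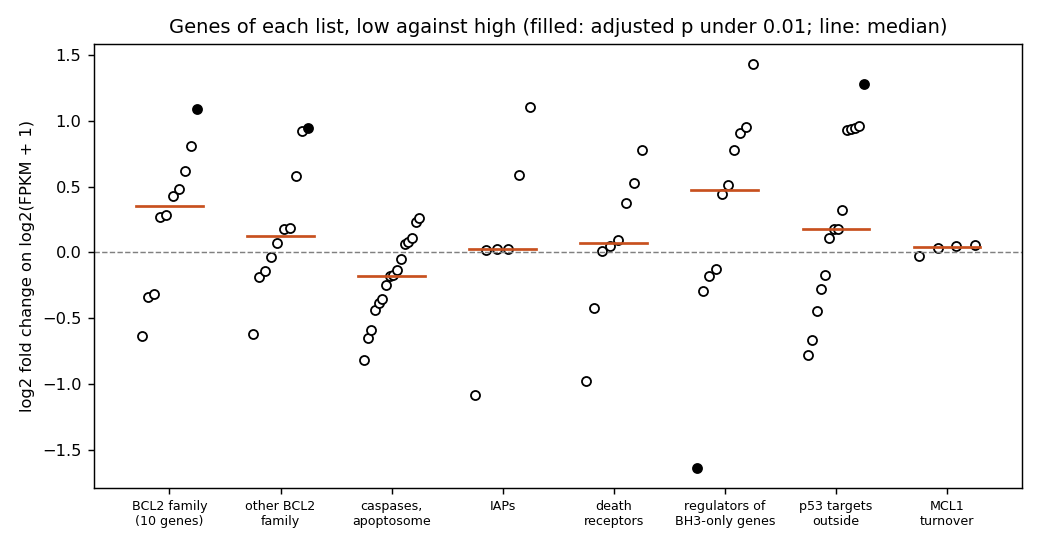
Log2 fold change on the log2(FPKM + 1) scale of each tested gene in the 8 gene lists, EWSR1::FLI1 low against EWSR1::FLI1 high cells, with 1 point for each gene, filled where the adjusted p is under 0.01 (limma), and an orange line at the median of each list. The filled points are BCL2, BOK, E2F1 and TP53I3, and the medians lie between -0.18 and 0.48.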

How the data were processed

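RNAseq was performed by the authors on rRNA-depleted total RNA of 6 samples, 3 for each condition, assigned to conditions by their titles. The authors mapped the reads to GRCh37 with STAR and named Cufflinks for abundance. The submitters' processing notes list STAR 2.5.0b, Cufflinks 2.2.1, bedtools 2.17.0 and DESeq2 1.6.3. The gene annotation and the use of strand in counting are not given in the sources used here. Unpooled FPKM values, 1 for each gene symbol and library, were deposited by the authors. In a second table the authors deposited a mean signal per gene (the mean normalized count over the 6 libraries) and the fold changes and p-values of their own comparison. Of this table only the mean signal was used.

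Multiplied by the ratio of this mean to the mean FPKM of the gene, 100% of the values above 0 were whole multiples of 1 value per library within 0.1 reads, and reads were recovered in this way. The floor was set at 3 reads. Intervals of counting error were not needed, and the floor covers counting error only. FPKM values were tested with limma (version 3.58.1, R 4.3.3; a linear model with a mean-variance trend in eBayes) on log2(FPKM + 1), with Benjamini-Hochberg adjustment over the 15504 genes with a mean of at least 0.5 FPKM, and the limit of 0.01 used by the authors was applied to the adjusted p. Fold changes on this scale understate the change of genes with low FPKM. An exact permutation test was not used, since 3 samples against 3 cannot give a p below 0.10.

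The procedure was tested on simulated data for the comparison of EWSR1::FLI1 low with high, with 15504 genes. It recovered 7% of 100 genes whose simulated log2 fold change was 1 and 67% of 100 for which it was 2, and called 1 of 15304 unchanged genes. The changed genes were few and none had a low level, whereas 1222 genes were called in the data. Since the adjustment is stricter where few genes change, these percentages do not give the recovery in the data.

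The 10 genes and the 7 other lists were chosen with earlier results of these data known. The text names all genes of the family, the up to 3 called genes with the largest rise and fall of each other list, or the largest estimate where none was called, and FLI1. Outside this rule, FOXO1, FOXO3, BIRC5, CFLAR and RIPK1 were named after their values were seen. Alternatives were a pseudocount of 0.1, no filter, a mean of at least 1 FPKM, quantile normalization, median-ratio scaling, a replicate block, no trend in eBayes, sample quality weights, limma-voom on recovered reads, an adjusted p under 0.05 and leaving out each library. Scaling to equal total FPKM was added after the data were seen. Gene coordinates are from GENCODE v44 lifted to GRCh37 and sequences from RefSeq (GRCh38.p14). Figures were drawn with matplotlib 3.10.9 in Python 3.11.15. Isoforms and proteins were not analysed here.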

Additional observations from a re-analysis of the deposited data

How the results depend on the processing

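FLI1 and E2F1 kept their direction and their call under all 17 alternatives, and BCL2 under all but the 3 that left out an EWSR1::FLI1 high library, with log2 fold changes for BCL2 from 0.99 to 1.38. Of all genes, 1222 were called (7.88%), and 4745 with sample quality weights (30.6%). Equal total FPKM gave 2035 (12.9%), quantile normalization 1992 (12.8%) and no filter 753 (3.07%). With 1 library left out, 478 to 2302 were called (3.08% to 14.9%). Of the 10 BCL2 family genes, 4 were called with sample quality weights (BCL2, BCL2L1, PMAIP1 and BCL2L11) and 3 at an adjusted p under 0.05, and 0 to 2 when 1 library was left out, with 2 (BCL2 and PMAIP1) without EWSR1::FLI1 low replicate 1 and 0 without any 1 of the EWSR1::FLI1 high libraries. For the other family genes the count was 0 without a filter, 2 with quantile normalization, limma-voom, equal total FPKM or an adjusted p under 0.05, 3 with sample quality weights, and 0 to 2 with 1 library left out. Sample quality weights were 0.172, 2.79 and 0.463 for EWSR1::FLI1 low replicates 1, 2 and 3. With these weights 2 genes for caspases and the apoptosome, 3 inhibitor of apoptosis genes and 4 death receptor genes were called. So were 7 regulators of BH3-only genes and 7 p53 targets, beside 30.6% of all genes tested. Quantile normalization gave 1 inhibitor of apoptosis gene and 1 death receptor gene, and equal total FPKM gave 1 and 3. Equal total FPKM moved the median of all genes by 0.11. Limma-voom called 1 death receptor gene and 3 regulators, beside 11.2% of all genes tested. At an adjusted p under 0.05, 2 inhibitor of apoptosis genes, 2 death receptor genes, 3 regulators and 3 p53 targets passed, beside 19.8% of all genes tested. A mean of at least 1 FPKM gave 2 regulators, and no filter gave 0 p53 targets, beside 10.4% and 3.07% of all genes tested. Leaving out 1 library gave 0 to 1 genes for caspases and the apoptosome, 0 to 1 inhibitor of apoptosis genes, 0 to 3 death receptor genes, 1 to 3 regulators and 0 to 2 p53 targets. The cause of these changes was not tested. Each fit without a library had fewer samples, and its count of all genes could be lower or higher than 1222.

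With the replicate number as a block, 1 of the 10 BCL2 family genes, 2 regulators of BH3-only genes and 3 p53 targets were called. Of all genes tested, 11% were called in this fit. After subtracting group means, the 2 libraries numbered 1, 2 and 3 had an r over genes of 0.27, 0.089 and 0.12, libraries with unlike numbers had r from -0.29 to 0.19, and not every library correlated best with its own number, so the numbers were not taken as pairs.

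Direction changed for genes that did not pass the test: MCL1 had a log2 fold change of 0.11 with sample quality weights. With quantile normalization, sample quality weights and without EWSR1::FLI1 low replicate 1, the values were -0.030, -0.075 and -0.041 for BIK, 0.0075, 0.064 and 0.061 for BCL2L13, and 0.019, 0.054 and 0.054 for BNIP3. BCL2L15 was at 0.027 with equal total FPKM. With 1 library left out, BCL2L2 ranged from -0.020 to 0.46, BCL2A1 from -0.33 to 1.14, BIK from -0.041 to 0.17, BCL2L13 from -0.25 to 0.061, BNIP3 from -0.33 to 0.054, BCL2L15 from -0.093 to 0.048 and BTRC from -0.0022 to 0.15. With 3 samples in each group, a gene that did not pass the test is not shown to be unchanged. The simulated recovery of 7% came from a setting with few changed genes, so it does not give the recovery in these data. Genes with few reads, such as BBC3, are also limited by depth.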
